A study of Homo sapiens with 24 samples.

Results

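The genes for the proteins of the cytosolic ribosome were followed through PC9 and H1975 lung cancer cells given almonertinib, paclitaxel or both. They were chosen by name: a protein-coding gene on an autosome or the X chromosome, with an RPS or RPL symbol and a number (an A, X or L after it allowed) or one of RPSA, RPLP0, RPLP1 and RPLP2, and at least 10 raw counts summed over all libraries. Of the 19702 genes in the count table, 83 met this. They comprised 43 genes of the large subunit, 31 of the small subunit, 3 of the stalk (RPLP0, RPLP1 and RPLP2) and 6 paralogs. The paralogs are genes named for their likeness to a canonical gene (RPS27L, RPL22L1, RPL26L1, RPL39L, RPL3L and RPL7L1). Whether their products are part of the ribosome in these cells was not examined. A filter on low counts left 81 members for tests in PC9 and 80 in H1975; RPL3L and RPL36A failed it in both lines and RPS10 failed it in H1975.

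PC9 and H1975 are established human lung adenocarcinoma lines with activating mutations of the receptor gene EGFR. Almonertinib is a covalent inhibitor of mutant EGFR, and paclitaxel is a taxane that stabilises microtubules. Cells were taken after 24 h in 8 groups of 3 libraries: for each line, both drugs combined, almonertinib alone, paclitaxel alone, and control. Almonertinib alone was given at 2 nM to PC9 and 1 nM to H1975, and paclitaxel alone at 0.3 nM to PC9 and 1 nM to H1975; the labels give the combination no separate doses and do not say what the control cells received.

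Cytosolic ribosomes join a small subunit, which decodes the messenger RNA, to a large subunit, which forms the peptide bond, and every subunit carries 1 copy of nearly each protein, so the genes are expressed at high and balanced levels. Most of their messenger RNAs begin with a terminal oligopyrimidine (5′ TOP) tract, a C followed by an unbroken run of C or U. Through it, mTOR signalling, which lies downstream of growth factor receptors such as EGFR, controls how strongly they are translated; RNA sequencing measures their level and not their translation.

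The 5′ tract was read from the RefSeq start sites (GRCh38.p14), in which 66 of the 83 members had an entry. A C at the first transcribed base followed by at least 4 further C or T on the transcribed strand was found at a start of 47 of these 66 members (71.2%), and at a start of 1404 of all 27305 genes in that table (5.14%). Of members with an entry, 25 of 35 large subunit genes, 18 of 24 small subunit genes, all 3 stalk genes and 1 of 4 paralogs had it. The windows below run from 10 bases before the start to base 20 of the transcript, 5′ to 3′, with the tract in capitals; they show core genes that the results turn on, and the paralog pairs RPL22 and RPL22L1, and RPS27 and RPS27L, whose starts can be compared. RPL22L1 begins with a tract as RPL22 does, whereas the windows of RPS27L, RPL26L1 and RPL7L1 hold none at the start listed.
RPLP0 (chr12:120201092-120201121, minus strand): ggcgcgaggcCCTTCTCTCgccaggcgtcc
RPSA (chr3:39406710-39406739, plus strand): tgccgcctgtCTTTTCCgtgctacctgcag
RPS6 (chr9:19380217-19380246, minus strand): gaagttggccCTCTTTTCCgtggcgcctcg
RPL14 (chr3:40457329-40457358, plus strand): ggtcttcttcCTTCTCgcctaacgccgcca
RPS9 (chr19:54200848-54200877, plus strand): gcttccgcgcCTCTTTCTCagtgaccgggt
RPL22 (chr1:6199576-6199605, minus strand): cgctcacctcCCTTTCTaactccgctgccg
RPL22L1 (chr3:170870176-170870205, minus strand): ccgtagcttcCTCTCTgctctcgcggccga
RPS27 (chr1:153990752-153990781, plus strand): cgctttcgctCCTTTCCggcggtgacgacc
RPS27L (chr15:63157458-63157487, minus strand): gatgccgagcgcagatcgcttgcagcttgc
RPL26L1 (chr5:172958719-172958748, plus strand): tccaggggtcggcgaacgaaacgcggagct
RPL7L1 (chr6:42879606-42879635, plus strand): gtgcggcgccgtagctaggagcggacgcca

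Libraries held 14232299 to 24245314 counts, and of the epithelial markers KRT8 lay at 1351 to 10296 CPM (counts scaled to the library's effective size) and EPCAM at 87.8 to 256 CPM. Of the leukocyte and myeloid markers, PTPRC and CD3E were at most 0.0489 CPM and CD68 at most 0.394 CPM, while CD14 had 1.06 to 4.60 CPM in PC9 and 5.85 to 11.5 CPM in H1975. Of the fibroblast markers, COL3A1 and DCN were at most 0.0528 CPM and LUM was at 0, while COL1A1 had 10.9 to 23.2 CPM in PC9 and 5.57 to 14.2 CPM in H1975. Of the endothelial markers, PECAM1 was at most 0.571 CPM, VWF had 0.845 to 2.63 CPM in PC9 and at most 0.495 CPM in H1975, and CDH5 had 3.57 to 8.93 CPM in PC9 and 1.61 to 5.27 CPM in H1975. Members took 10.7% to 16.3% of a library's counts. Members are short, with a median transcript length of 764 nt against 2475 nt over genes with at least 10 counts, and libraries differed in how their counts followed transcript length and GC content. In each library the deviation of genes other than members from their line's mean was therefore correlated, across genes, with length and with GC. In 4 libraries the Spearman correlation with length lay more than 0.3 from the median of their group: PC9 almonertinib 3, H1975 almonertinib 1, H1975 paclitaxel 1 and H1975 control 3. Results are given for the counts as deposited and also after each library's trend on length and GC, estimated on the other genes, was removed; where leaving out the 4 libraries changed the number of members called by over 1.5 times, the values without them stand beside.

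In PC9 the members' share of counts was 14.1%, 13.6% and 14.4% in the combination libraries, 12.8%, 14.7% and 16.3% under almonertinib, 11.9%, 12.8% and 12.5% under paclitaxel, and 14.3%, 14.5% and 14.6% in control. The means were 14.0% ± 0.399, 14.6% ± 1.77, 12.4% ± 0.490 and 14.5% ± 0.178 in the same order (SD, n = 3 each). All 3 paclitaxel libraries lay below all control libraries. In a share of counts from bulk samples, less of this RNA per cell, fewer cells that carry it and more of other RNA cannot be told apart. The paclitaxel libraries also stood apart from control in both correlations. With length they had 0.25 ± 0.02 under paclitaxel, against -0.15 ± 0.04 in control. With GC they had -0.59, -0.60 and -0.43 under paclitaxel, against 0.17, 0.20 and 0.38 in control. The part of either in the lower share was not tested. The shares of the almonertinib libraries lay on both sides of those of the control libraries. In H1975 the share was 11.7%, 12.7% and 13.4% in the combination, 12.8%, 12.3% and 13.8% under almonertinib, 10.7%, 15.3% and 16.0% under paclitaxel, and 13.3%, 13.2% and 12.4% in control. The H1975 groups overlapped, and the paclitaxel libraries of that line spread most.

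**Figure D1:**
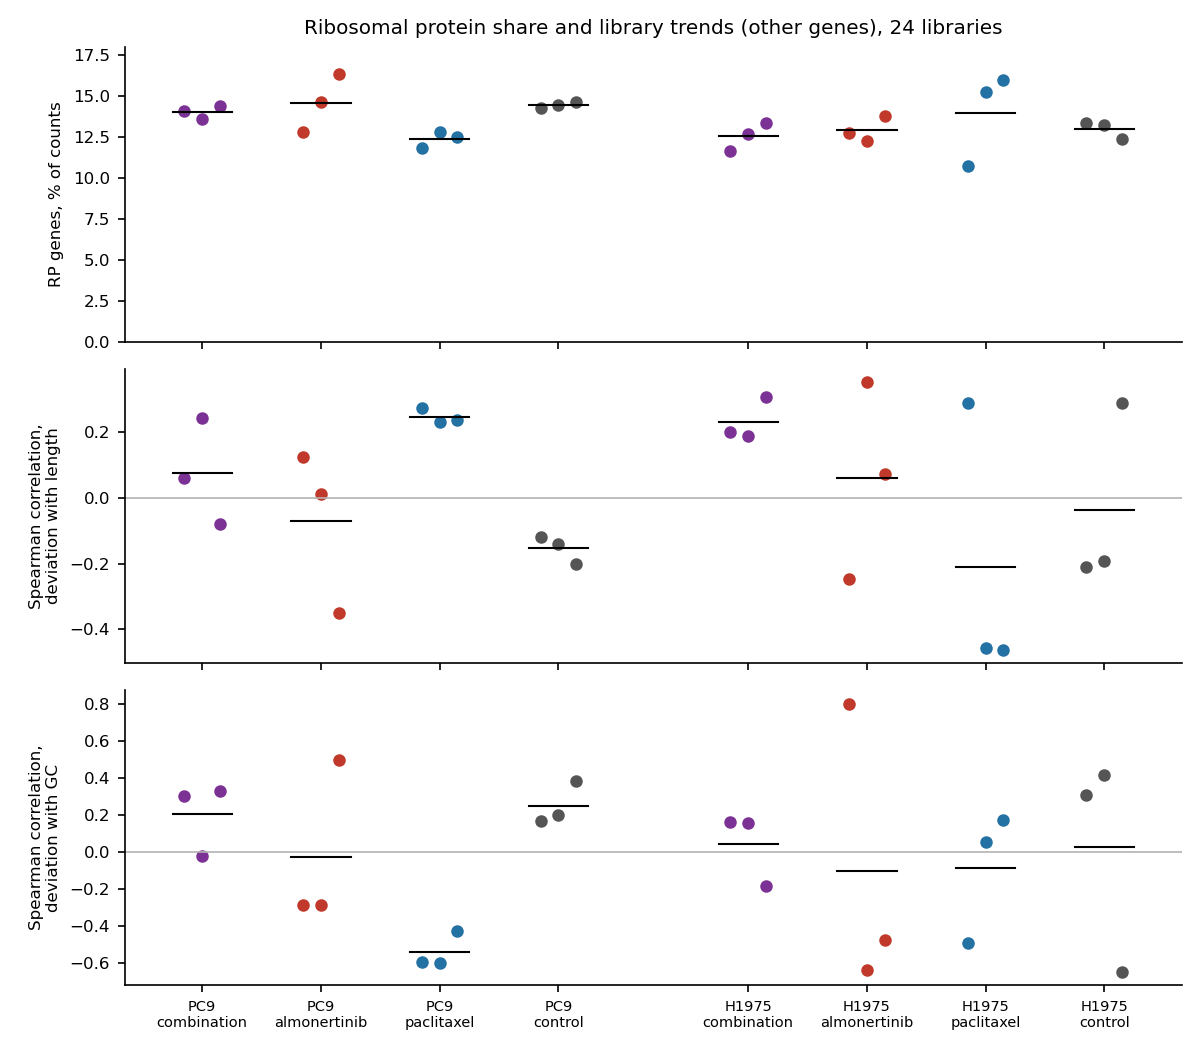
Top, counts in the 83 ribosomal protein genes as a percent of all counts; middle and bottom, Spearman correlation (over genes that are not members) between transcript length or GC content and how far a gene in that library deviates from its line's mean. Each point is 1 library and each bar the mean of 3. The PC9 paclitaxel libraries lie together at 0.23 to 0.27 for length, above the PC9 control libraries at -0.20 to -0.12. For GC they lie at -0.60 to -0.43, below the PC9 control libraries at 0.17 to 0.38. In H1975, the libraries within the control, almonertinib and paclitaxel groups lie far apart in both correlations.

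Levels per transcript length let members be set beside each other, as far as the annotated length holds. That length is a median over annotated transcripts and can differ from the transcript expressed. RPS28, for example, was taken as 1326 nt, with a coding length of 207 nt. Per kilobase of transcript, the control libraries of PC9 had a median of 1613 CPM over the members, with RPS2 highest at 10840 ± 253 and RPL28 next at 9492 ± 688 (SD, n = 3 each). RPS2 was also highest in H1975 control cells, at 12299 ± 2416, with a median of 1162 over the members. A few canonical genes were counted far lower than others of the same particle: in PC9 control cells RPL22 had 15.7 CPM per kilobase, RPL26 had 7.74, RPL17 had 4.57, RPS10 had 0.935 and RPL36A had 0.291. Many ribosomal protein genes have near-identical processed pseudogenes, and 7 members overlap another gene of the table on their own strand (among them RPS10, RPS15A, RPL17 and RPL36A), so reads can have been left uncounted and the levels of such members are uncertain.

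Under paclitaxel in PC9, most members were lower than in control. Of 81 members tested, 50 fell and 1 rose (edgeR adjusted p under 0.05), where 28% of all 12796 genes fell and 27% rose. The median log2 fold change was -0.40 over the members and -0.01 over all genes. The 50 comprised 25 of 42 large subunit genes, 21 of 31 small subunit genes, all 3 stalk genes and 1 of 5 paralogs. Over the other genes the median log2 fold change also followed length: it was -0.24 for genes under 600 nt, -0.23 from 600 to 1000 nt, -0.13 from 1000 to 2000 nt and 0.28 over 4000 nt. The members of the first 3 length classes had -0.42, -0.42 and -0.37, each below the other genes of the same class of annotated length. After the length and GC trend was removed, 24 members fell and 9 rose, where 21.7% and 28.7% of all genes did, and the members' median was -0.11. Of the 50 members that fell in the counts as deposited, 22 also fell after this step. The labels do not say that a group's libraries are separate cultures, so this and the other p-values measure library spread, which may be technical.

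**Figure D2:**
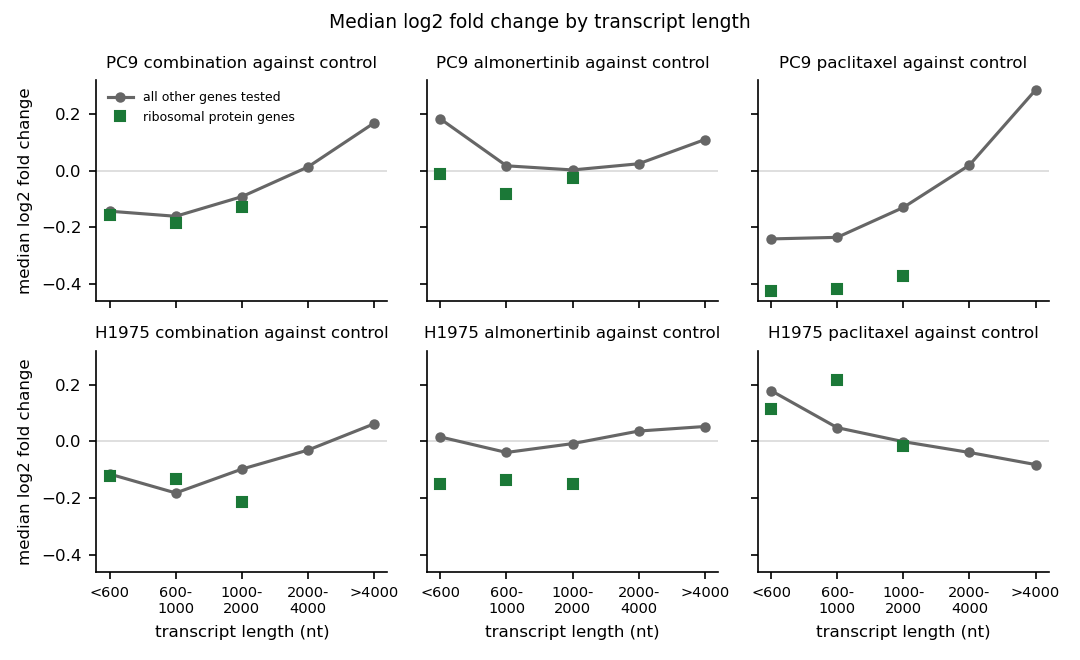
Median log2 fold change against control in classes of transcript length, for all other genes tested (circles and line) and for ribosomal protein genes (squares, classes with at least 10 members). Under paclitaxel in PC9 the other genes run from -0.24 in the shortest class to 0.28 in the longest and the members lie below them. Under the combination in PC9 the members lie close to other genes of their class of annotated length.

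All 3 stalk genes, whose products bind translation factors on the large subunit, fell under paclitaxel, RPLP0 by the most of them. RPLP0, the stalk base (chr12:120196686-120201235 on GRCh38, minus strand), had 3599, 4180 and 4270 CPM in paclitaxel libraries, against 6816, 6838 and 7111 CPM in control. The groups did not overlap. It fell by 0.78 ± 0.15 on the log2 scale (SE; adjusted p = 0.000457), and by 0.42 with the trend removed (adjusted p = 0.000366). RPLP1 had 1973, 1874 and 2036 CPM under paclitaxel, against 2732, 2569 and 3105 CPM in control. It fell by 0.51 ± 0.14 (adjusted p = 0.00546), but its value was -0.01 with the trend removed (adjusted p = 0.951). RPLP2 fell by 0.36 ± 0.13 (adjusted p = 0.0268), and its value turned to 0.11 with the trend removed (adjusted p = 0.212). The call of RPLP2 was lost without control library 1 or 3 (adjusted p = 0.057 and 0.092) and without paclitaxel library 2 or 3 (adjusted p = 0.13 and 0.073).

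Among the other core members under paclitaxel, RPSA, a small subunit protein also known as a laminin receptor precursor, had 3392, 3775 and 3806 CPM, against 6039, 5817 and 6173 CPM in control. No paclitaxel library reached a control library. It fell by 0.71 ± 0.14 (adjusted p = 0.000651), and by 0.40 with the trend removed (adjusted p = 0.00110). RPL13A, a large subunit protein, fell by 0.70 ± 0.14 (adjusted p = 0.000728), and by 0.34 with the trend removed (adjusted p = 0.00111). RPS6, the substrate of S6 kinase, fell by 0.28 ± 0.10 (adjusted p = 0.0196), and by 0.27 with the trend removed (adjusted p = 0.00357). RPS27A, which encodes ubiquitin fused to a small subunit protein, fell by 0.34 ± 0.10 (adjusted p = 0.00635), and by 0.20 with the trend removed (adjusted p = 0.0180). RPL11, which with RPL5 and 5S RNA can bind MDM2, fell by 0.44 ± 0.16 (adjusted p = 0.0255), with -0.17 when the trend was removed (adjusted p = 0.241); RPL5 had a value of 0.00 ± 0.09. The single rise was that of RPL22, a large subunit protein, by 0.33 ± 0.12 (adjusted p = 0.0274); it was not called with the trend removed, at 0.20 (adjusted p = 0.0838). Leaving out 1 library ended 3 of these calls: RPL22 without control 1, 2 or 3 or paclitaxel 1 (adjusted p = 0.051, 0.058, 0.082 and 0.13), RPS6 without control 1 or 3 or paclitaxel 1 or 3 (adjusted p = 0.062, 0.059, 0.12 and 0.078), and RPL11 without control 2 or 3 or paclitaxel 1 or 3 (adjusted p = 0.055, 0.064, 0.12 and 0.074).

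Under almonertinib in PC9, members moved in both directions and no more often than other genes. Here 7 rose and 20 fell of 81, where 28.9% of all genes rose and 27.8% fell, with medians of -0.08 over the members and 0.03 over all genes. Large subunit genes gave 1 rise and 9 falls of 42, small subunit genes 5 rises and 9 falls of 31, paralogs 1 rise and 2 falls of 5, and no stalk gene was called. After removal of the trend 28 rose and 13 fell, where 32.9% and 27.6% of all genes did, and the members' median was 0.10. Of the 7 rises 6 and of the 20 falls 10 were called the same way after this step. Without almonertinib library 3, which had the highest members' share, 46 members were called in place of 27, and without the 4 libraries apart 8 rose and 38 fell, where 32.4% and 30.4% of all genes did; without control library 1, 17 were called.

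The larger falls under almonertinib included 2 abundant core genes. RPS4X, the small subunit gene on the X chromosome (chrX:72255679-72277300, minus strand), had 752, 1037 and 971 CPM under almonertinib, against 1668, 1515 and 1659 CPM in control. RPL14, a large subunit gene (chr3:40457292-40468587, plus strand), had 506, 595 and 585 CPM under almonertinib, against 931, 856 and 936 CPM in control. Neither gene's groups overlapped. RPS4X fell by 0.81 ± 0.12 (adjusted p = 1.83e-05) and by 0.52 with the trend removed (adjusted p = 3.84e-05). RPL14 fell by 0.69 ± 0.10 (adjusted p = 1.62e-05) and by 0.33 with the trend removed (adjusted p = 0.000244). RPL11 fell too, by 0.67 ± 0.16 (adjusted p = 0.00166), and by 0.37 with the trend removed (adjusted p = 0.0152). RPS6 lay at the threshold, at -0.23 ± 0.10 (adjusted p = 0.04999), and lost its call without any 1 of the PC9 libraries other than almonertinib 2 and 3 (adjusted p = 0.051 to 0.18).

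The rises under almonertinib were led by small subunit genes. RPS9 (chr19:54200742-54249003, plus strand) had 4259, 4543 and 6904 CPM under almonertinib, against 3401, 3461 and 3779 CPM in control. All 3 almonertinib libraries were above control, and the third stood far above the other two. It rose by 0.56 ± 0.15 (adjusted p = 0.00488), and by 0.59 with the trend removed (adjusted p = 4.73e-07). RPS29 had 712, 766 and 957 CPM under almonertinib, against 571, 567 and 623 CPM in control. RPS24 had 683, 920 and 803 CPM under almonertinib, against 609, 603 and 599 CPM in control. Their groups did not overlap either. RPS29 rose by 0.46 ± 0.13 (adjusted p = 0.00479) and RPS24 by 0.41 ± 0.11 (adjusted p = 0.00352); with the trend removed they rose by 0.71 (adjusted p = 2.20e-06) and 0.53 (adjusted p = 2.11e-05). RPSA and the stalk genes were not called under almonertinib, at 0.09 ± 0.14 for RPSA and -0.03 ± 0.15 for RPLP0; with the trend removed RPSA, RPLP0 and RPLP1 rose, by 0.46, 0.29 and 0.52, and RPLP2 fell by 0.20.

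Under the combination in PC9, fewer members were called than under either drug alone, a difference that was not itself tested. Of 81 members 1 rose and 16 fell, where 24.7% of all genes rose and 26% fell. The members' median was -0.16, close to that of other genes under 600 nt (-0.14) and from 600 to 1000 nt (-0.16). The falls were those of 4 of 42 large subunit genes, 8 of 31 small subunit genes and 4 of 5 paralogs. After removal of the trend, 19 rose and 6 fell, where 29.8% and 28.3% of all genes did, and the median was 0.07; all 6 had also fallen in the counts as deposited. The count of 17 was 11 without control library 3 or without combination library 2, and 26 without almonertinib library 1 or 3, which enter only through the shared spread. When the 4 libraries apart were left out, 2 rose and 24 fell, where 30% and 28.9% of all genes did.

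RPL5 was the only member that rose under the combination. It had 406, 400 and 437 CPM in the combination, against 374, 328 and 334 CPM in control. The groups did not overlap, and the difference was small, at 0.24 ± 0.09 (adjusted p = 0.0390), or 0.41 with the trend removed (adjusted p = 2.68e-05). Its call was lost without control library 2 (adjusted p = 0.12) or 3 (adjusted p = 0.13) and without combination library 1 (adjusted p = 0.071) or 3 (adjusted p = 0.14). RPS4X and RPL14, named here after their values were seen, were followed because they fell under almonertinib. RPS4X had 1293, 1143 and 1270 CPM and RPL14 had 683, 596 and 657 CPM in the combination, below all control libraries. RPS4X fell by 0.41 ± 0.12 (adjusted p = 0.00774), with -0.17 when the trend was removed (adjusted p = 0.0792). RPL14 fell by 0.51 ± 0.10 (adjusted p = 0.000376), and by 0.21 with the trend removed (adjusted p = 0.00930). RPS27A also fell, by 0.38 ± 0.10 (adjusted p = 0.00328), with -0.13 when the trend was removed (adjusted p = 0.0993).

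**Figure D3:**
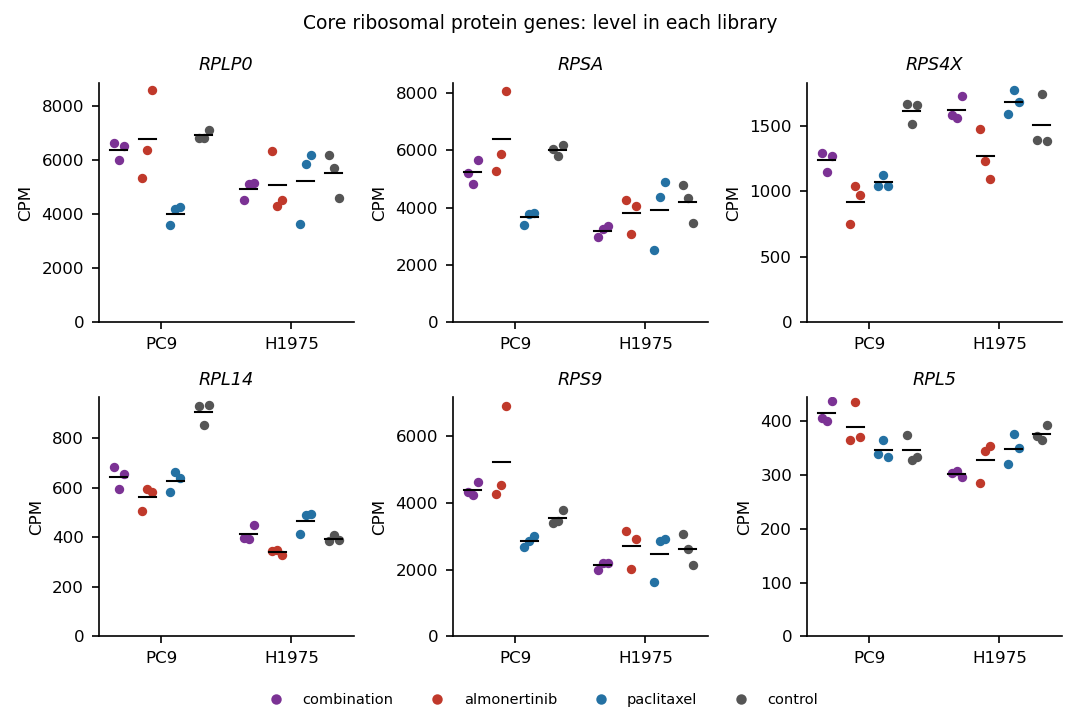
Level of 6 core ribosomal protein genes in CPM, each point 1 library and each bar the mean of 3. In PC9, RPLP0 and RPSA are lowest under paclitaxel, RPS4X and RPL14 are below control in every treated library, and RPS9 is high in almonertinib library 3 at 6904 CPM.

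Of the 5 paralogs tested in PC9, 4 fell in the combination, where 26% of all genes did. RPL22L1, the paralog of RPL22 (chr3:170864875-170870483, minus strand), had 16.0, 10.9 and 14.3 CPM in the combination, 19.1, 16.7 and 18.6 CPM under almonertinib, 37.1, 32.0 and 28.3 CPM under paclitaxel, and 30.0, 28.6 and 28.5 CPM in PC9 control. The combination and almonertinib libraries lay below all control libraries, and the paclitaxel libraries spread around them. It fell 2.14-fold in the combination (log2 -1.10 ± 0.14, adjusted p = 6.27e-06) and 1.61-fold under almonertinib (log2 -0.68 ± 0.13, adjusted p = 0.000382). With the trend removed the log2 values were -1.16 in the combination (adjusted p = 4.40e-06) and -1.03 under almonertinib (adjusted p = 1.09e-05). Under paclitaxel its value was 0.16 ± 0.13 (adjusted p = 0.299).

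RPL7L1, named for its likeness to RPL7 (chr6:42879618-42889925, plus strand), is the longest member, with 4123 nt. It had 55.3, 57.0 and 56.6 CPM in the combination, 65.5, 62.7 and 50.6 CPM under almonertinib, 99.7, 95.0 and 84.5 CPM under paclitaxel, and 111, 104 and 96.9 CPM in PC9 control. The combination and almonertinib libraries were all below control, without overlap, while the paclitaxel libraries overlapped control. It fell 1.87-fold in the combination (log2 -0.90 ± 0.10, adjusted p = 1.94e-06) and 1.75-fold under almonertinib (log2 -0.81 ± 0.10, adjusted p = 4.29e-06). The trend hardly moved these values, to -0.90 in the combination and -0.75 under almonertinib. Under paclitaxel it had -0.15 ± 0.10 (adjusted p = 0.191), and it fell by 0.33 with the trend removed (adjusted p = 0.000185). Every other setting tried kept the calls of RPL22L1 and RPL7L1 in the combination and under almonertinib.

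RPL39L, the paralog of RPL39, had 69.6, 67.7 and 75.1 CPM in the combination, 77.2, 83.0 and 112 CPM under almonertinib, 96.6, 93.7 and 92.1 CPM under paclitaxel, and 104, 101 and 109 CPM in PC9 control. It fell by 0.59 ± 0.11 in the combination (adjusted p = 0.000450), and by 0.27 with the trend removed (adjusted p = 0.00297). RPL26L1, the paralog of RPL26, fell by 0.55 ± 0.14 in the combination (adjusted p = 0.00322) and by 0.42 ± 0.14 under paclitaxel (adjusted p = 0.0164), and was called in neither with the trend removed (-0.25, adjusted p = 0.0708, and -0.17, adjusted p = 0.227). Its paclitaxel call was lost without control library 1 (adjusted p = 0.073) and without paclitaxel library 1, 2 or 3 (adjusted p = 0.068, 0.052 and 0.052). RPS27L, the paralog of RPS27 and a known p53 target, rose by 0.39 ± 0.14 under almonertinib in PC9 (adjusted p = 0.0210), with 0.15 when the trend was removed (adjusted p = 0.313); the call was lost without almonertinib library 2 or control library 1 or 2 (adjusted p = 0.081, 0.062 and 0.057). RPL3L, a striated muscle paralog of RPL3, held between 0 and 0.272 CPM in any library of either line.

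**Figure D4:**
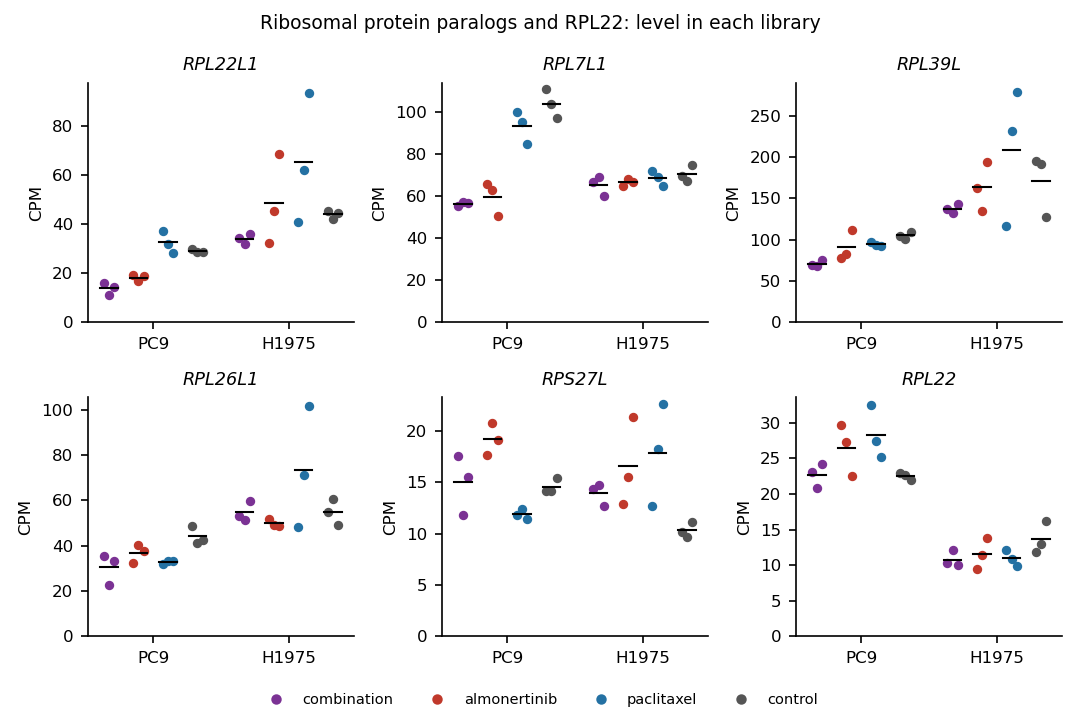
Level of 5 paralogs and of RPL22 in CPM, each point 1 library and each bar the mean of 3. In PC9, RPL7L1 lies at 50.6 to 65.5 CPM in combination and almonertinib libraries and at 96.9 to 111 CPM in control, while in H1975 all groups lie between 59.9 and 74.7 CPM; RPS27L in H1975 is above control in every treated library.

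Set against paclitaxel alone in PC9, the combination had higher levels of many core members: 24 rose and 6 fell of 81, where 21.7% of all genes rose and 22.4% fell, with a median of 0.21 over the members and -0.05 over all genes. The rises were those of 14 large subunit, 8 small subunit and 2 stalk genes. After removal of the trend 34 rose and 5 fell, where 20.1% and 25.6% of all genes did, the median was 0.19, and 18 of the 24 rises were called again. The comparison of paclitaxel with control, this one and the interaction below share the 3 paclitaxel libraries, so they are not separate results. Against control, RPLP0, RPSA and RPLP1 were not called in the combination, at -0.13 ± 0.15, -0.22 ± 0.14 and -0.04 ± 0.14 (edgeR adjusted p = 0.472, 0.208 and 0.846). RPLP0 had 6636, 6007 and 6536 CPM in the combination, against 3599, 4180 and 4270 CPM under paclitaxel. It rose by 0.65 ± 0.15 (adjusted p = 0.00246), and RPL13A by 0.63 ± 0.14 (adjusted p = 0.00225), RPSA by 0.49 ± 0.14 (adjusted p = 0.0110) and RPLP1 by 0.47 ± 0.14 (adjusted p = 0.0110); with the trend removed these 4 rose by 0.52, 0.48, 0.46 and 0.34. RPL22L1 fell by 1.26 ± 0.13 (adjusted p = 2.39e-06), RPL7L1 by 0.75 ± 0.10 (adjusted p = 2.12e-05) and RPL39L by 0.43 ± 0.11 (adjusted p = 0.00556), and all 3 fell with the trend removed. The 30 calls became 10, 18 and 17 without paclitaxel library 1, 2 or 3, and 13 without combination library 1 or 3. RPSA lost its call without paclitaxel 1 or combination 3 (adjusted p = 0.06 and 0.054), and RPLP1 without paclitaxel 2 or combination 3 (adjusted p = 0.053 and 0.052).

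Against almonertinib alone, the combination changed few members: 1 rose and 9 fell, where 10.3% of all genes rose and 9.74% fell, and 5 rose and 10 fell with the trend removed, where 10.3% and 15.9% did. With coding length in place of transcript length in that trend, 2 rose and 19 fell, where 11.6% and 16.8% of all genes did. Without the 4 libraries apart, 10 rose and 9 fell, where 15.3% and 17.1% of all genes did, so the balance of rises and falls changed with these settings. RPS4X rose by 0.41 ± 0.12 (adjusted p = 0.0192), and by 0.35 with the trend removed (adjusted p = 0.00471). RPS27A had 499, 444 and 487 CPM in the combination, against 590, 683 and 720 CPM under almonertinib, and fell by 0.49 ± 0.10 (adjusted p = 0.00186); the groups did not overlap. RPL22L1 fell further, by 0.42 ± 0.14 (adjusted p = 0.0401), with -0.13 when the trend was removed (adjusted p = 0.552). RPL39L fell by 0.37 ± 0.11 (adjusted p = 0.0278), and by 0.41 with the trend removed. The calls of RPS4X, RPL22L1 and RPL39L were each lost when 1 library was left out: RPS4X without almonertinib 1 or combination 1 or 3 (adjusted p = 0.061, 0.089 and 0.071), RPL39L without almonertinib 3 or combination 1 or 2 (adjusted p = 0.051, 0.099 and 0.1), and RPL22L1 without almonertinib 1, control 2, paclitaxel 1 or 2, or combination 2 or 3 (adjusted p = 0.095, 0.054, 0.05, 0.067, 0.2 and 0.078). The 10 calls became 18 and 19 without almonertinib library 1 or 3, and 5, 3 and 5 without combination library 1, 2 or 3.

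The interaction of the drugs in PC9, the combination minus both single drugs plus control on the log2 scale, asks whether the combination differs from the sum of the single effects. It was above 0 in 22 members and below 0 in 4, where 22.1% of all genes were called above and 23.4% below; the median was 0.33 over the members and 0.01 over all genes. Once the trend was removed 13 were above and 11 below, where 17.2% and 27.3% of all genes were, and the median was 0.09. With coding length in place of transcript length, 7 were above and 18 below, where 17.8% and 27.6% of all genes were. Without the 4 libraries apart, 51 were above and 4 below in the counts as deposited, where 29.1% and 28.9% of all genes were, and the median was 0.47. With the trend on transcript length also removed, 25 were above and 10 below, where 2113 and 3841 of 12898 genes were, and the median was 0.15. Of these settings, only the trend on coding length left more members called below 0 than above. Among the largest values were those of RPS4X, 1.00 ± 0.16 (adjusted p = 0.000159), and RPL11, 0.88 ± 0.22 (adjusted p = 0.00410), both called after removal too, at 0.79 and 0.61. RPL11 had 990, 893 and 904 CPM in the combination, 456, 784 and 790 CPM under almonertinib, 722, 859 and 790 CPM under paclitaxel, and 1044, 1064 and 1111 CPM in control. RPL26 had the lowest value, -0.88 ± 0.24 (adjusted p = 0.00682), at 3.88 to 7.03 CPM, and RPS24 had -0.67 ± 0.15 (adjusted p = 0.00172). RPL22L1 had -0.58 ± 0.19 (adjusted p = 0.0191), which turned to 0.08 with the trend removed (adjusted p = 0.771), and was not called without paclitaxel library 1 or combination library 2 (adjusted p = 0.063 and 0.051). Without almonertinib library 3, 55 members were called in place of 26.

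In H1975 no member was called by edgeR in any of the 6 comparisons. Against control, 0 of 80 were called in the combination, where 2.46% of all 12345 genes were; 0 under almonertinib, where 1.95% were; and 0 under paclitaxel, where 0.64% were. Members with an unadjusted p under 0.05 numbered 3, 2 and 11 in that order (18.6%, 10.4% and 8.16% of all genes), and DESeq2 called 0 in each (5.74%, 2.86% and 1.39% of all genes). The combination against almonertinib (0% of all genes called), against paclitaxel (0%) and the interaction (0.672%) had 2, 15 and 6 members with an unadjusted p under 0.05 (9.96%, 13.8% and 10.3% of all genes), and DESeq2 called 0, 2 and 0 (0.332%, 3.87% and 2.02%). The members' median log2 fold change against control was -0.14 in the combination, -0.14 under almonertinib and 0.13 under paclitaxel. Across 75 members without a same-strand overlap, the log2 fold change under paclitaxel in H1975 had a Spearman correlation of -0.62 with GC content, and in PC9 of -0.41. These are descriptions, and the part of the libraries' GC trends in them was not tested. Over the same 75 members the correlation of the fold change with the members' count level was -0.46 in H1975 and -0.60 in PC9, so members with more counts tended to have the lower values in both lines.

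These H1975 counts changed with the libraries that stood apart. Without almonertinib library 1 alone, 1 member was called in each comparison with control and in the combination against almonertinib, 3 in the combination against paclitaxel and 2 in the interaction; without paclitaxel library 1 alone, 14 were called in the combination against paclitaxel. Without the 4 libraries, 1 member rose and 34 fell in the combination against control (15.8% and 19.2% of all genes), 4 rose and 39 fell under almonertinib (23.9% and 21.6%), and 25 rose and 0 fell under paclitaxel (3.58% and 5.25%). In the combination against almonertinib 19 rose and 7 fell (15.1% and 19.2%), against paclitaxel 0 rose and 63 fell (16.7% and 16.3%), and in the interaction 3 were above 0 and 23 below (16.4% and 16.5%). When the trend was removed in addition, the counts were 1 and 20 in the combination (13.1% and 17.3% of all genes), 4 and 16 under almonertinib (15.7% and 12.1%), and 20 and 0 under paclitaxel (3.84% and 5.25%). They were then 3 and 13 in the combination against almonertinib (5.26% and 13.2%), 1 and 36 against paclitaxel (11.3% and 11.6%), and 1 and 21 in the interaction (7.61% and 10.3%). Control, almonertinib and paclitaxel then had 2 libraries each, and the libraries were chosen after the data were seen, by genes other than members. In the libraries kept, the correlation with length was -0.21 and -0.19 in control and 0.35 and 0.07 under almonertinib. It was -0.46 and -0.46 under paclitaxel and 0.19 to 0.31 in the combination. The groups kept thus differed in the length trend too, and its part in the calls was not tested beyond its removal.

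RPS27L was the member that stood out in H1975 (chr15:63125872-63158021, minus strand). It had 14.4, 14.8 and 12.7 CPM in the combination, 12.9, 15.5 and 21.4 CPM under almonertinib, 12.7, 18.3 and 22.6 CPM under paclitaxel, and 10.1, 9.66 and 11.2 CPM in control. Every treated library lay above every control library. In the counts as deposited its log2 values of 0.40 ± 0.22, 0.68 ± 0.22 and 0.77 ± 0.22 in that order were not called (adjusted p = 0.346, 0.185 and 0.189); without almonertinib library 1, they were called at 0.84 under almonertinib and 0.78 under paclitaxel (adjusted p = 0.022 and 0.039). After removal of the trend, where 5.35%, 4.2% and 1.55% of all genes rose and 8.56%, 4.06% and 1.96% fell, it was the 1 member that rose in each: by 0.63 in the combination (adjusted p = 0.0120), 0.68 under almonertinib (adjusted p = 0.00940) and 0.62 under paclitaxel (adjusted p = 0.0278). The 3 comparisons share the same control libraries. RPS27L overlaps LACTB on the other strand, and the counted strand is not given in the sources used here. In the combination 4 members fell once the trend was removed, where 8.56% of all genes did, among them RPL26 by 0.57, RPL5 by 0.28 and RPS15A by 0.64 (adjusted p = 0.0281, 0.0268 and 0.0308), named after their values were seen.

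**Figure D5:**
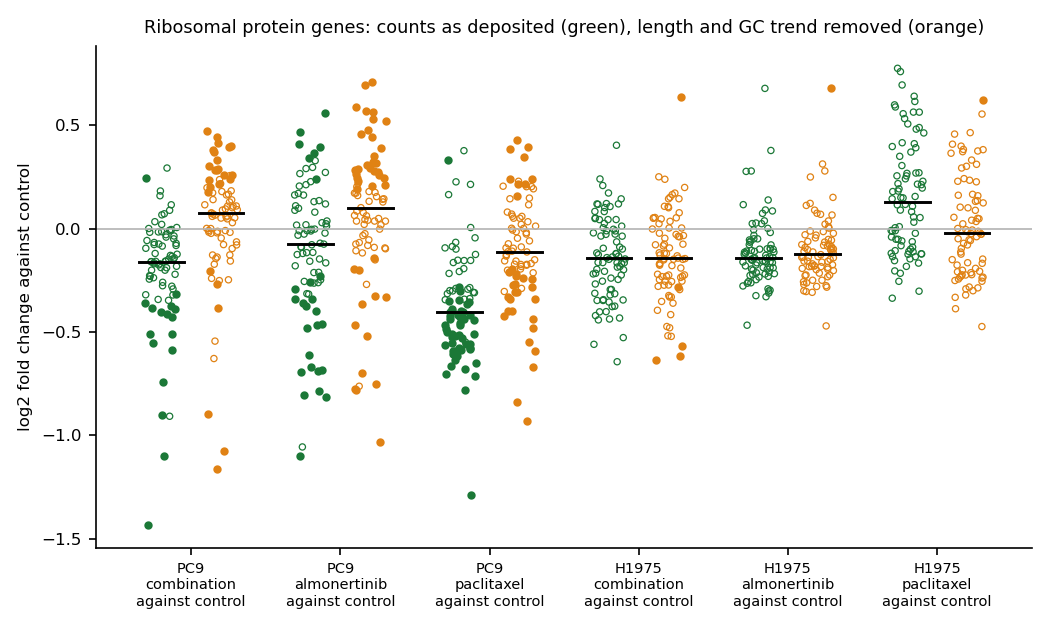
Log2 fold change against control of each ribosomal protein gene tested (1 point a gene), in counts as deposited (green) and with the length and GC trend of each library removed (orange); filled points had an edgeR adjusted p under 0.05 and bars are medians. In PC9 under paclitaxel the median moves to -0.11 with the trend removed, against -0.40 in the deposited counts, and in H1975 hardly any point is filled.

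The difference between the lines, PC9 minus H1975, was tested in 1 fit of all 24 libraries; since the doses differed, line and dose cannot be told apart. For the combination, 1 member was higher and 2 lower, where 6.99% and 11% of all 13380 genes were; for almonertinib 0 and 2, where 5.53% and 11% were; and for paclitaxel 1 and 21, where 9.9% and 7.21% were. RPL7L1 differed in both comparisons in which it fell in PC9: its log2 difference was -0.78 ± 0.16 for the combination (adjusted p = 0.00126) and -0.72 ± 0.16 for almonertinib (adjusted p = 0.00231). In H1975 it had 66.8, 69.2 and 59.9 CPM in the combination, 64.8, 67.9 and 66.5 CPM under almonertinib, and 69.4, 67.0 and 74.7 CPM in control. Both differences were called with the trend removed, at -0.66 and -0.67. RPL5 differed by 0.58 ± 0.16 for the combination (adjusted p = 0.0160), and by 0.69 with the trend removed. For paclitaxel the members' median difference was -0.49, or -0.10 with the trend removed, when 3 members were higher and 11 lower (16.8% and 10.4% of all genes). For the combination and almonertinib, removal gave 15 higher and 3 lower (15.6% and 14.9%) and 17 higher and 3 lower (14.9% and 14.3%). Leaving out the 4 libraries apart, 14 were higher and 8 lower for the combination (19.6% and 19%), 13 and 6 for almonertinib (16.1% and 13.8%), and 1 and 58 for paclitaxel (20.9% and 14.8%). In the deposited counts, the 22 paclitaxel calls became 41, 12 and 6 without H1975 paclitaxel library 1, 2 or 3 and 10 without H1975 control 3. They became 14 and 10 without PC9 control 1 or 3, and 9, 12 and 12 without PC9 paclitaxel 1, 2 or 3. The 3 calls for the combination became 5 without H1975 almonertinib 1, control 2 or paclitaxel 1. The 2 for almonertinib became 4, 5 and 4 without H1975 almonertinib 3, H1975 paclitaxel 1 or PC9 almonertinib 3, and 1 without any of 13 other libraries; RPL7L1 was called for both without each library in turn.

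Other genes of the translation machinery moved in both directions in PC9, where 24.7% of all genes rose and 26% fell in the combination, 28.9% and 27.8% under almonertinib, and 27% and 28% under paclitaxel. Of 16 translation factors and other genes known for 5′ TOP transcripts that were tested in PC9, 3 rose and 3 fell in the combination, 3 rose and 5 fell under almonertinib, and 3 rose and 7 fell under paclitaxel. TPT1, a 5′ TOP transcript known as translationally controlled tumour protein, fell by 0.72 ± 0.11, 0.91 ± 0.11 and 1.01 ± 0.11 in that order. EIF3E, a subunit of the initiation factor eIF3, rose by 0.79 ± 0.16 under almonertinib and 0.90 ± 0.16 under paclitaxel. Of 15 regulators of their translation, 2, 2 and 3 rose and 8, 7 and 6 fell in the same order. RHEB, the activator of mTOR, fell by 0.59 ± 0.08 in the combination and 0.80 ± 0.08 under almonertinib. RPS6KB1 rose by 0.54 ± 0.19 in the combination, 0.84 ± 0.19 under almonertinib and 0.90 ± 0.19 under paclitaxel. LARP4 rose by 0.47 ± 0.16, 0.86 ± 0.16 and 0.70 ± 0.16 in that order. Of 8 dedicated chaperones and related factors, 1, 1 and 2 rose and 5, 5 and 4 fell. GRWD1, a chaperone of RPL3, fell by 0.97 ± 0.10 in the combination and 0.86 ± 0.10 under paclitaxel. NACA rose by 0.38 ± 0.10 in the combination, 0.66 ± 0.10 under almonertinib and 0.40 ± 0.10 under paclitaxel. Of 77 mitochondrial ribosomal protein genes, which are also short, 0, 8 and 6 rose and 46, 28 and 47 fell, with medians of -0.44, -0.16 and -0.34; in the combination and under paclitaxel their falls were a larger share than among all genes, a difference that was not tested. Of 70 respiratory chain genes, another set of short housekeeping transcripts, 2, 23 and 4 rose and 30, 12 and 33 fell, with medians of -0.21, 0.14 and -0.25. All these values are of the counts as deposited in PC9. With the trend removed the mitochondrial ribosomal medians were -0.29, -0.11 and -0.14. The respiratory chain medians were then 0.02, 0.19 and 0.03, so that none lay below 0. RPL36AL, a ribosomal protein gene outside the naming rule, rose by 0.38 ± 0.09 under almonertinib.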

How the data were processed

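RNA of 24 libraries, 3 in each of 8 groups, was sequenced after TRIzol extraction with libraries made from total RNA, per the labels' protocols. The authors deposited raw read counts per gene, whole numbers with no normalisation. The tools named are HTSeq and HISAT2 (2.2.1), and the build is GRCh38, per the submitters' processing notes; the annotation, the strand counted and the treatment of multi-mapping reads are not given in the sources used here. Symbols came from a gene name reference, with the GENCODE v29 name where it gave none. Positions and lengths (median over basic coding transcripts) came from GENCODE v29.

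Each line's 12 libraries were fitted in edgeR 4.0.16 (R 4.3.3) with TMM factors, filterByExpr and a term per group. Two-sided quasi-likelihood p-values were adjusted by Benjamini-Hochberg over all genes tested in a comparison, and genes under 0.05 were called. Line differences came from a fit of all 24 libraries, which makes 15 comparisons. CPM are counts scaled by library totals times TMM factors. The SE after ± on a log2 value is approximate. Rose and fell denote called genes. The length and GC trend was a natural spline (5 degrees of freedom each) per library, fitted to genes other than members and used as an offset. DESeq2 1.42.0, other filters and factors, a replicate term and leaving out each library were alternatives. Scripts were tested on simulated data.

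The members, lists and naming rule (largest called changes with at least 5 CPM, plus paralogs, stalk genes, RPSA, RPS6, RPS27A, RPL5 and RPL11) were chosen with earlier results of these data known. Reads shared with pseudogenes or overlapping genes could not be traced. Results of some genes are not reported here.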

Additional observations from a re-analysis of the deposited data

Results flagged for a closer look

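The 10 differences between the lines given here each had an edgeR adjusted p under 0.05, as the log2 response of PC9 minus that of H1975. They are not all such calls: 3, 2 and 22 members were called for the combination, almonertinib and paclitaxel. For the combination they were RPL7L1 at -0.78 ± 0.16, RPL14 at -0.56 ± 0.17 (adjusted p = 0.0198) and RPL5 at 0.58 ± 0.16. For almonertinib they were RPL7L1 at -0.72 ± 0.16 and RPL14 at -0.49 ± 0.17 (adjusted p = 0.0451). RPL14 was called in neither with the length and GC trend removed, at -0.17 and -0.15 (adjusted p = 0.213 and 0.303). Its combination call was also lost without PC9 control 1 or 3, PC9 combination 2 or H1975 combination 3 (adjusted p = 0.056, 0.059, 0.082 and 0.06), and its almonertinib call without any 1 library other than H1975 almonertinib 3, H1975 paclitaxel 1, PC9 almonertinib 3 and PC9 paclitaxel 1, 2 and 3 (adjusted p = 0.051 to 0.12).

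For paclitaxel 22 members were called, RPL14 among them, and only some are listed. Those listed were RPL22 at 0.68 ± 0.22 (adjusted p = 0.0372), RPL9 at -1.23 ± 0.28 (adjusted p = 0.00598), RPL26L1 at -0.82 ± 0.26 (adjusted p = 0.0331), RPS27A at -0.82 ± 0.25 (adjusted p = 0.0291) and RPS27L at -1.06 ± 0.27 (adjusted p = 0.0102). RPL26L1 was not called with the trend removed, at -0.41 (adjusted p = 0.145), and the other 4 were. Leaving out H1975 control 3, H1975 paclitaxel 3, PC9 control 3 or PC9 paclitaxel 1 or 2 ended the calls of RPL22, RPL26L1 and RPS27A. So did H1975 paclitaxel 2 for RPL22 and RPL26L1, PC9 control 1 and PC9 paclitaxel 3 for RPL26L1 and RPS27A, PC9 control 2 for RPL22 and H1975 control 1 for RPL26L1; adjusted p then lay at 0.057 to 0.14 for RPL22, 0.053 to 0.17 for RPL26L1 and 0.053 to 0.15 for RPS27A; RPS27L lost its call without H1975 paclitaxel 3 (adjusted p = 0.05). RPL9 had 421, 510 and 431 CPM under paclitaxel in PC9, against 694, 706 and 782 CPM in control. In H1975 it had 271, 424 and 612 CPM under paclitaxel, against 268, 333 and 273 CPM in control, with paclitaxel library 1 the lowest of its group. The part of the length trend of single libraries in these differences was not tested beyond its removal.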

How the results depend on the processing

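The order below is PC9 combination, almonertinib and paclitaxel against control, PC9 combination against almonertinib and against paclitaxel, and the PC9 interaction, labelled a to f here, with 17, 27, 51, 10, 30 and 26 called. A fit of all 24 libraries gave 10, 14, 23, 0, 7 and 14; fits of 2 groups gave 37 for the combination against control, 1 against almonertinib and 53 against paclitaxel. Removing the trend gave 41 for almonertinib and 33 for paclitaxel; with a replicate block too, 28, 43, 33 and 16 for a to d; with coding length, 28, 46 and 21 for a, b and d. Without the 4 libraries apart a, b, d and f were 26, 46, 19 and 55, and with the trend also removed a and d were 35 and 16. In H1975, with 0 called in all 6, a fit of all 24 libraries gave 1, 1 and 1 against control, 6 for combination against paclitaxel and 1 for the interaction; fits of 2 groups gave 4 (combination against control) and 2 (against paclitaxel), and DESeq2 gave 2 for the last. Removing the trend gave 5, 1 and 1 against control, 6, 1 and 1 with a replicate block or with coding length, and with coding length 1 for combination against paclitaxel. Without the 4 libraries the 6 were 35, 43, 25, 26, 63 and 26, and with the trend also removed 21, 20, 20, 16, 37 and 22. For PC9 minus H1975 (combination, almonertinib and paclitaxel, with 3, 2 and 22 called), removing the trend gave 18, 20 and 14; with a replicate block 18 and 19 for combination and almonertinib; with coding length 18 and 26 for these; without the 4 libraries 22, 19 and 59; with both 32 and 24. For almonertinib DESeq2 gave 4, and RLE factors, no filter and a replicate block gave 1 each. Leaving out each library in turn gave 11 to 26, 17 to 46, 3 to 19, 10 to 42 and 21 to 55 for PC9 (a, b, d, e and f), 0 to 1 for H1975 against control and for combination against almonertinib, 0 to 14 and 0 to 2 for its last pair, and 2 to 5, 1 to 5 and 6 to 41 for the line differences.

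Signs that turned did so with the trend removed (then with a block, with coding length, and without the 4 libraries): RPLP0 under almonertinib in PC9 (0.29, 0.28, 0.32, 0.22), RPL39L under paclitaxel (0.24, 0.24, 0.52, 0.25), RPLP2 under paclitaxel (0.11, 0.11, 0.22, 0.13), RPLP1 in the combination (0.33, 0.34, 0.31, 0.38), RPLP2 in combination against paclitaxel (-0.19, -0.19, -0.23, the last not turned), and RPL22L1 in the interaction (0.081, 0.070, coding length not turned, 0.18). With coding length alone RPL39L under almonertinib (0.27), RPLP1 in the interaction (-0.31) and RPLP2 in the paclitaxel line difference (0.40) turned, and in H1975 RPLP2 in combination against paclitaxel turned to 0.25 without the 4 libraries. The cause was not tested.

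The share of counts in PC9 moved beyond 1 SD to 14.6%, 11.1% and 15.7% in combination, paclitaxel and control libraries scaled by TMM factors, and to 14.7% in control without mitochondrially encoded genes. Same-numbered libraries of 2 groups did not all correlate above 0.1 in any comparison, so the numbers were not taken as pairs; under paclitaxel in PC9 each library correlated best with its own number. A replicate block without trend removal moved only the almonertinib line difference by over 1.5 times. The trend removal, coding length and the settings without libraries or members overlapping a same-strand gene include choices made after the data were seen.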
